A study of Hordeum vulgare with 24 samples.

Results

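HvMADS14, HvMADS15 and HvMADS18 are the barley genes of the APETALA1/FRUITFULL group of MADS-box transcription factors, and their transcripts were followed in young spikes. They were taken by identifier as HORVU5Hr1G095630 (HvMADS14, the vernalization gene VRN1), HORVU2Hr1G063800 (HvMADS15) and HORVU0Hr1G003020 (HvMADS18). All 3 were found in the count table and in the FPKM table, as 3 of 39734 gene identifiers. The names come from knowledge of the family; the tables do not pair them with the identifiers, and they were not checked by sequence. The identifiers place HvMADS14 on chromosome 5 and HvMADS15 on chromosome 2, and HvMADS18 on no chromosome, which the identifier writes as 0.

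RNA sequencing had been done on inflorescences of the barley cultivar Golden Promise, either wild type (WT) or mutant for HvMADS1 (mads1), a SEPALLATA-group MADS-box gene. Plants grew with a photoperiod of 16 h at 50% humidity, in low temperature (LT, days of 15 °C with nights of 10 °C) or high temperature (HT, days of 25 °C with nights of 20 °C). Collection was at stages W2.5 and W3.5 of the Waddington scale of spike development, and each library was made from 15 to 20 pooled spikes. The 8 groups were WT and mads1, each at LT and HT and at W2.5 and W3.5, with 3 libraries labelled as biological replicates in each. The sources used here give neither the kind of HvMADS1 mutation nor the number of mutant lines. The question stated by the series is how HvMADS1 bears on the determinacy of the barley spike at high ambient temperature.

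APETALA1/FRUITFULL proteins bind DNA as dimers and larger complexes with other MADS-box proteins, SEPALLATA proteins among them. In grasses they act in the change of the shoot apex from leaf to spike formation. In rice, OsMADS14, OsMADS15 and OsMADS18 act together in giving the inflorescence meristem its identity. In wheat, the related genes VRN1, FUL2 and FUL3 act redundantly, and in their combined absence spikelets are replaced by leafy shoots. HvMADS14 is best known as VRN1, which cold induces in winter barley and which promotes flowering; Golden Promise is a spring cultivar.

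Library totals ran from 13283533 to 19864259 counted reads, and after removal of low counts edgeR tested 18394 identifiers. All 3 genes were among them. WT HT W2.5 replicate 3 stood apart from the other 23 libraries: its TMM scaling factor was 0.575 against 0.959 to 1.08, and its 100 most abundant genes took 26.9% of its reads against 14.5% to 19% elsewhere. Without it the common dispersion, a measure of the spread between replicates, was 0.0173 in place of 0.0685. Each result is therefore given with all 24 libraries and, where it differs, without that library. HvMADS1 itself was called lower in mads1 only at HT W3.5, where the 3 mads1 libraries had 0, 0.33 and 13.3 CPM (reads scaled to a common library size) and WT had 61.8 ± 2.84 CPM (SD, n = 3). At LT the mads1 libraries lay below WT with no call, at 14 to 23.2 against 36.9 to 44.6 CPM at W2.5 and at 42.2 to 50.2 against 55.1 to 61.2 CPM at W3.5. At HT W2.5 the genotypes overlapped, so the transcript level does not check the genotype label there.

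The 3 genes were abundant in every library. Per length, HvMADS14 was the most abundant, with a mean of 377 FPKM over the 24 libraries, rank 303 of the 18394 tested genes. HvMADS18 had a mean of 80.8 FPKM, rank 1693, and HvMADS15 a mean of 62.2 FPKM, rank 2271. HvMADS14 gave 63.5% to 82.6% of the FPKM of the 3 genes summed within a library. The counts behind these values ran from 241 to 8142 reads per gene and library, and the lowest was that of HvMADS15 in WT HT W2.5 replicate 3.

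Over the 8 groups HvMADS15 varied most. Its highest group median of TMM-scaled CPM was 3.28 times its lowest, against 2.89 times for HvMADS18 and 1.87 times for HvMADS14. Among 13259 genes with at least 5 CPM the median of this ratio was 1.54. A ratio as large as that of HvMADS15 was found in 5.70% of these genes, as large as that of HvMADS18 in 7.57%, and as large as that of HvMADS14 in 26.1%.

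HvMADS15 was the gene of the stage difference. In WT at LT it stood at 33.7, 41.6 and 34.1 CPM at W2.5 and at 57.8, 58.6 and 61.0 CPM at W3.5. In WT at HT it stood at 28.3, 26.4 and 27.7 CPM at W2.5 and at 59.7, 63.4 and 54.7 CPM at W3.5. All 12 W3.5 libraries of both genotypes lay above all 12 W2.5 libraries.

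In mads1 at LT the values of HvMADS15 were 35.5, 33.5 and 31.9 CPM at W2.5 and 63.6, 83.3 and 76.5 CPM at W3.5. In mads1 at HT they were 23.2, 23.3 and 23.6 CPM at W2.5 and 58.9, 65.1 and 67.7 CPM at W3.5. The lowest and the tightest group was mads1 HT W2.5, at 23.4 ± 0.182 CPM (SD, n = 3), and the highest mean was mads1 LT W3.5, at 74.4 ± 10.0 CPM (SD, n = 3). The libraries of the 4 W3.5 groups overlapped with those of the next group in the order of means, except below WT LT W3.5, where the W2.5 groups began.

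Stage was compared within each of the 4 combinations of genotype and temperature with edgeR's quasi-likelihood test, adjusted by Benjamini-Hochberg over the 18394 genes. Calls needed an adjusted p under 0.05. Of the 12 stage tests of the 3 genes 6 were called, all higher at W3.5, and 10 of 12 when WT HT W2.5 replicate 3 was left out. In WT LT 1 of the 3 genes was called, where 0.636% of all tested genes were called and 0.429% were called higher. Leaving out that library made it 2 of 3, against 3.53% of all genes and 2.14% higher. In WT HT 1 of 3 was called, against 24.9% of all genes and 5.59% higher, and without the library 2 of 3, against 11.4% and 5.01%. In mads1 LT 1 of 3 was called, against 1.64% of all genes and 1.15% higher, and without the library 3 of 3, against 7.58% and 4.19%. In mads1 HT 3 of 3 were called, against 7.83% of all genes and 4.68% higher, and without the library also 3 of 3, against 29.2% and 14.8%.

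HvMADS15 was called in all 4 combinations. The log2 fold change was 0.70 (SE 0.11, adjusted p = 0.00323) in WT LT and 1.11 (SE 0.11, adjusted p = 8.05e-06) in WT HT by edgeR. In mads1 it was 1.15 (SE 0.11, adjusted p = 1.16e-05) at LT and 1.45 (SE 0.11, adjusted p = 3.31e-07) at HT by edgeR. These calls were kept when any library of the comparison, or WT HT W2.5 replicate 3, was left out, with adjusted p of 0.0402 at most by edgeR. With only the libraries compared in the fit, the WT HT call was lost (adjusted p = 0.198 by edgeR).

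**Figure D1:**
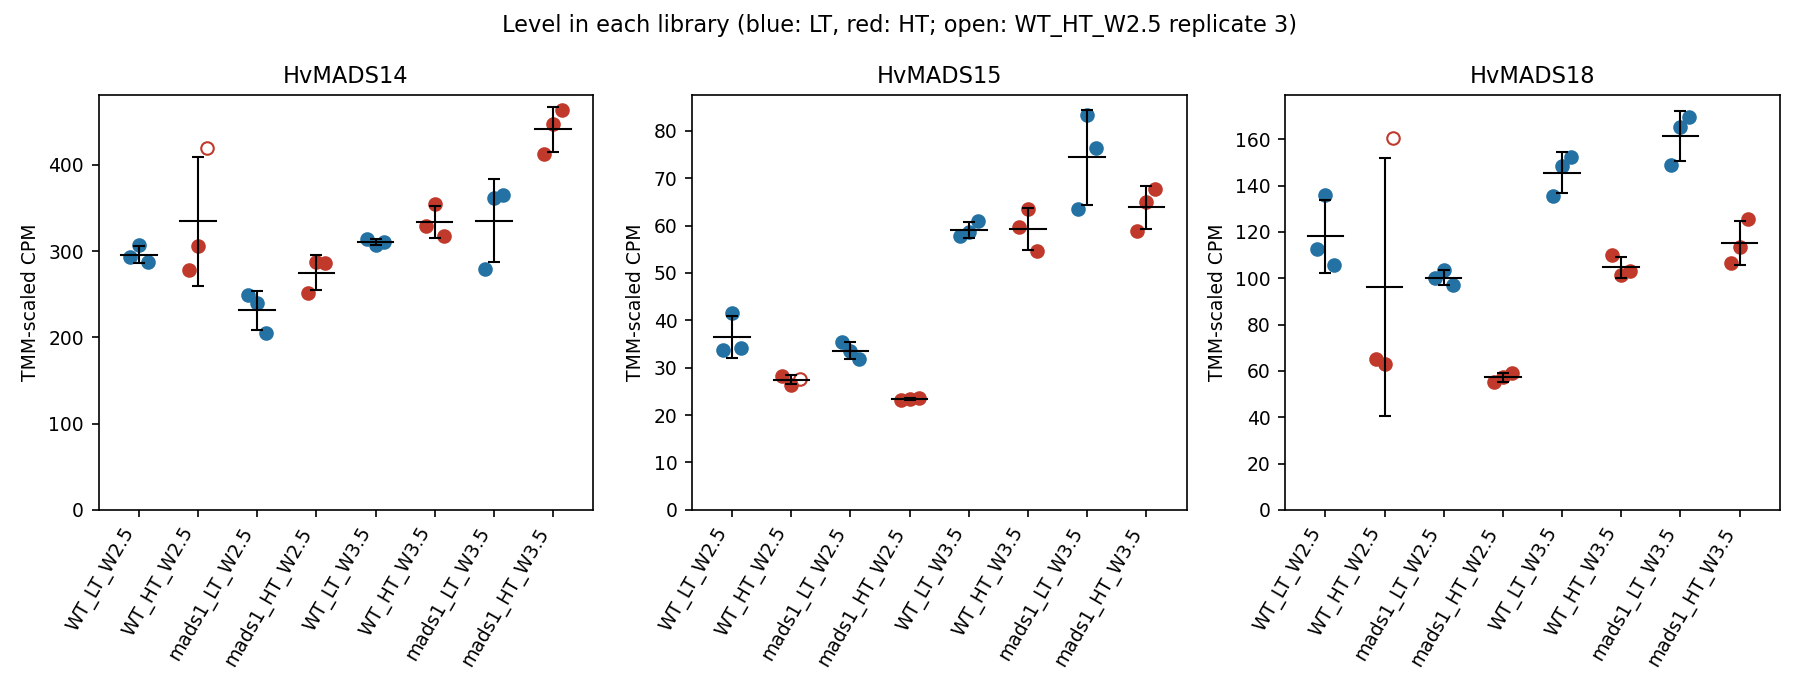
TMM-scaled CPM of HvMADS14, HvMADS15 and HvMADS18 in each of the 24 libraries, by group, with the group mean (line) and SD (bar), LT in blue, HT in red and WT HT W2.5 replicate 3 as an open circle. HvMADS15 is at 23.2 to 41.6 CPM in all W2.5 libraries and at 54.7 to 83.3 CPM in all W3.5 libraries, and the open circle is the highest of its group for HvMADS14 and HvMADS18.

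HvMADS18, the gene in which stage and temperature moved in opposite directions by like amounts, stood at 113, 136 and 106 CPM in WT LT W2.5. It stood at 136, 149 and 153 CPM in WT LT W3.5. The highest W2.5 library and the lowest W3.5 library were within 1 CPM of each other, so the groups overlapped. In WT HT W2.5 the values were 65.1, 63.0 and 160.5 CPM, and in WT HT W3.5 they were 110.0, 102 and 103 CPM. Replicate 3 of WT HT W2.5 lay far above both other libraries of its group, which themselves lay below every WT library of W3.5.

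In mads1 at LT the values of HvMADS18 were 100.3, 103 and 97.0 CPM at W2.5 and 149, 166 and 169.8 CPM at W3.5. In mads1 at HT they were 55.4, 57.2 and 59.2 CPM at W2.5 and 107, 114 and 126 CPM at W3.5. The W2.5 and W3.5 libraries of mads1 did not overlap at either temperature. The highest mean was that of mads1 LT W3.5, at 161 ± 10.9 CPM (SD, n = 3), and the lowest that of mads1 HT W2.5, at 57.3 ± 1.91 CPM (SD, n = 3). All neighbours in the order of means overlapped except that last group, which lay below WT HT W2.5.

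With all 24 libraries edgeR called the stage difference of HvMADS18 in mads1 HT alone, where it measured 1.01 on the log2 scale (SE 0.24, adjusted p = 0.00994). In mads1 LT it was 0.69 (SE 0.23, adjusted p = 0.231 by edgeR). In WT it was 0.30 (SE 0.23, adjusted p = 1) at LT and 0.13 (SE 0.23, adjusted p = 0.687) at HT by edgeR. All 4 were called when WT HT W2.5 replicate 3 was left out, at 0.33 and 0.73 in WT LT and HT and at 0.67 and 1.00 in mads1 LT and HT, with edgeR adjusted p of 0.0143 at most. The library enters these tests through the spread that all groups share, the scaling of libraries and the set of genes tested. In WT HT it also enters through its own group. How much each contributed was not tested.

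HvMADS14, the VRN1 gene, was nearly level between stages in WT at LT, and at HT only with WT HT W2.5 replicate 3 included. It stood at 294, 307 and 288 CPM in WT LT W2.5 and at 314, 307 and 311 CPM in WT LT W3.5, groups that were separate by less than 1 CPM. In WT HT W2.5 it stood at 278, 306 and 419 CPM and in WT HT W3.5 at 329, 354 and 318 CPM. Replicate 3 of WT HT W2.5 again gave the highest value of the WT libraries.

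In mads1 at LT HvMADS14 stood at 249, 239.9 and 205 CPM at W2.5 and at 279.9, 361 and 365 CPM at W3.5. In mads1 at HT it stood at 252, 287 and 287 CPM at W2.5 and at 413, 448 and 464 CPM at W3.5. The W3.5 libraries of mads1 lay above the W2.5 libraries at both temperatures. mads1 HT W3.5, at 442 ± 26.0 CPM (SD, n = 3), was above every other group with the exception of WT HT W2.5 replicate 3, and mads1 LT W2.5, at 231 ± 22.9 CPM (SD, n = 3), was below every other group. mads1 LT W3.5 replicate 1 was the lowest of its group for all 3 genes.

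The stage difference of HvMADS14 was called in mads1 HT, where it measured 0.68 on the log2 scale (SE 0.14, adjusted p = 0.00351 by edgeR). In mads1 LT it was 0.54 (SE 0.14, adjusted p = 0.0555 by edgeR) and was called without WT HT W2.5 replicate 3 (adjusted p = 0.00054) or without mads1 LT W3.5 replicate 1. In WT it was 0.07 (SE 0.14, adjusted p = 1) at LT and -0.00 (SE 0.14, adjusted p = 0.991) at HT by edgeR, and without WT HT W2.5 replicate 3 it was 0.10 and 0.21 with neither called.

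Taken over the 4 combinations of genotype and temperature, the mean stage difference on the log2 CPM scale was 1.10 for HvMADS15, 0.57 for HvMADS18 and 0.33 for HvMADS14. Exact permutation tests over libraries, two-sided, with labels exchanged within each combination, gave p = 1.25e-05, p = 0.000788 and p = 0.00289. The first of these is the smallest p that the 160000 permutations allow. These 3 were among 9 such tests of levels, 3 genes by 3 factors, and 6 of the 9 stayed under 0.05 after adjustment over the 9. In bulk spikes, fewer cells of a type and less RNA per cell cannot be told apart.

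Temperature moved the 3 genes in different directions. HvMADS18 was lower at HT, by a mean of 0.55 on the log2 scale over the 4 combinations of genotype and stage, which is a 1.46-fold difference (exact permutation test, two-sided, p = 0.000387). HvMADS15 was lower at HT by a mean log2 difference of 0.28, or 1.22-fold (exact permutation test, two-sided, p = 0.000562). HvMADS14 was higher at HT by a mean log2 difference of 0.23, or 1.17-fold (exact permutation test, two-sided, p = 0.000737). Without WT HT W2.5 replicate 3 the mean differences were -0.66, -0.29 and 0.19, each in the same direction.

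Of the 12 edgeR temperature tests 4 were called, 1 higher and 3 lower at HT, and 8 of 12 when WT HT W2.5 replicate 3 was left out, 2 higher and 6 lower. In WT W2.5 1 of 3 genes was called lower, where 22.4% of all tested genes were called and 5.59% were called lower. Leaving out that library made it 2 of 3, against 17% of all genes and 7.71% lower. In WT W3.5 0 of 3 were called, against 6.14% of all genes, and without the library 1 was called lower, against 25.8% and 12.2% lower. In mads1 W2.5 2 of 3 were called lower, against 8.11% of all genes and 3.82% lower. Without the library all 3 were called there, 1 higher and 2 lower, against 31% of all genes, 16.5% higher and 14.5% lower. In mads1 W3.5 1 of 3 was called higher, against 27.2% of all genes and 14% higher. Without the library 1 was called higher and 1 lower there, against 54.3% of all genes, 28.9% higher and 25.4% lower, a share of calls near that of the 3 genes.

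The difference of HvMADS18 was negative in all 4 combinations. By edgeR the log2 fold change of HT against LT was -0.30 (SE 0.23, adjusted p = 0.343) in WT W2.5 and -0.47 (SE 0.23, adjusted p = 0.313) in WT W3.5. In mads1 it was -0.81 (SE 0.23, adjusted p = 0.0392) at W2.5, the single call with all 24 libraries, and -0.49 (SE 0.23, adjusted p = 0.135) at W3.5 by edgeR. That call was lost without any of the 6 libraries compared, at adjusted p of 0.0851 to 0.121 by edgeR. With WT HT W2.5 replicate 3 left out, all 4 were called, at -0.87, -0.47, -0.79 and -0.46 in the same order, with edgeR adjusted p of 0.000117 at most. At W3.5 and in mads1 W2.5 all HT libraries lay below all LT libraries.

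HvMADS15 fell at W2.5, where the log2 fold change was -0.41 (SE 0.11, adjusted p = 0.0174) in WT and -0.52 (SE 0.11, adjusted p = 0.00627) in mads1 by edgeR. Of all tested genes, 55.1% in WT and 23.6% in mads1 changed at least as much. The HT and LT libraries of W2.5 did not overlap in either genotype. The WT call was lost without WT LT W2.5 replicate 2, the highest of its group (adjusted p = 0.077 by edgeR), and with only the libraries compared in the fit (adjusted p = 0.555 by edgeR). The mads1 call was lost with limma on log2 FPKM, at adjusted p of 0.0582 at most. At W3.5 the log2 fold change was 0.00 (SE 0.11, adjusted p = 1) in WT and -0.22 (SE 0.11, adjusted p = 0.157) in mads1 by edgeR, and the groups overlapped; the mads1 difference was called without mads1 LT W3.5 replicate 1.

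HvMADS14 rose at HT in mads1 W3.5, by 0.40 on the log2 scale (SE 0.14, adjusted p = 0.0366 by edgeR). This size was ordinary there, since 52.3% of all tested genes changed at least as much. The HvMADS14 call was lost without mads1 LT W3.5 replicate 1 or without mads1 HT W3.5 replicate 2 or 3, at edgeR adjusted p of 0.179 at most. It was also lost with no filter on low counts (adjusted p = 0.0529 by edgeR). In mads1 W2.5 the log2 fold change was 0.25 (SE 0.14, adjusted p = 0.335 by edgeR), and it was called without WT HT W2.5 replicate 3, at 0.27 (adjusted p = 0.0225 by edgeR). In WT W3.5 it was 0.10 (SE 0.14, adjusted p = 0.846 by edgeR). In WT W2.5 it was 0.18 (SE 0.14, adjusted p = 0.343 by edgeR), turned to -0.01 without WT HT W2.5 replicate 3, and was -0.12 when libraries were scaled by their totals, as FPKM is.

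**Figure D2:**
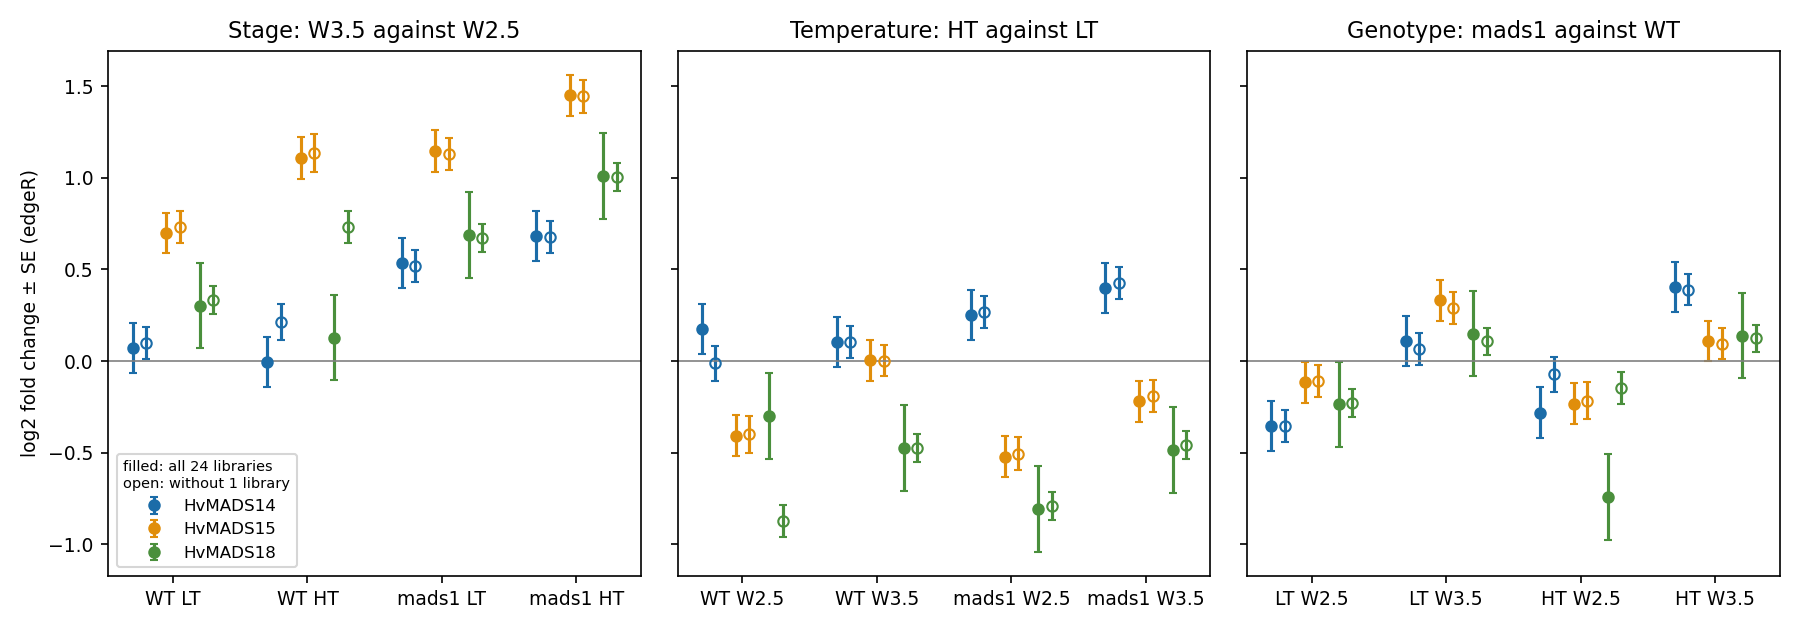
edgeR log2 fold changes with SE for stage, temperature and genotype in each of 4 settings, for all 24 libraries (filled) and without WT HT W2.5 replicate 3 (open). In the temperature panel HvMADS18 lies below 0 in every setting, between -0.30 and -0.87, while HvMADS14 lies between -0.01 and 0.43.

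Because the 3 genes moved differently, their balance within a library changed, and a ratio between genes of the same library does not depend on how libraries are scaled. The FPKM of HvMADS14 was 3.08 to 4.46 times that of HvMADS18 in the 12 LT libraries, with a median of 3.64. In the 12 HT libraries it was 4.28 to 8.23 times, with a median of 6.41. The only HT library inside the LT range was WT HT W2.5 replicate 3, at 4.28, and without it the HT libraries began at 4.90. The mean difference over the 4 combinations was 0.78 on the log2 scale, a 1.72-fold higher ratio at HT (exact permutation test, two-sided, p = 2.5e-05, adjusted p = 5.63e-05 over the 9 ratio tests). It was 1.80-fold when WT HT W2.5 replicate 3 was left out.

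The group means of the HvMADS14 to HvMADS18 ratio were 4.14 ± 0.393 (SD, n = 3) in WT LT W2.5 and 3.51 ± 0.251 (SD, n = 3) in WT LT W3.5. In mads1 LT they were 3.78 ± 0.298 at W2.5 and 3.39 ± 0.274 at W3.5 (SD, n = 3 each). At HT they were 6.42 ± 1.91 and 5.23 ± 0.436 in WT and 7.87 ± 0.390 and 6.29 ± 0.215 in mads1, at W2.5 and W3.5 (SD, n = 3 each). In all 4 combinations of genotype and temperature the ratio was lower at W3.5 than at W2.5, by a mean of 1.18-fold (log2 difference -0.24, exact permutation test, two-sided, p = 0.00417, adjusted p = 0.00751).

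The ratio of HvMADS14 to HvMADS15 differed by stage and by temperature. At W2.5 it was 5.86 to 7.92 in LT libraries and 8.92 to 13.8 in HT libraries. At W3.5 it was 3.94 to 4.94 in LT libraries and 5.01 to 6.37 in HT libraries. LT and HT did not overlap within either stage. The log2 difference of HT against LT was 0.101 in WT W3.5, against 0.556 in WT W2.5, 0.775 in mads1 W2.5 and 0.62 in mads1 W3.5. An interaction of the factors on this ratio was not tested. The ratio was 1.43-fold higher at HT (log2 difference 0.51) and 1.71-fold lower at W3.5 (log2 difference -0.77), each with an exact permutation p of 1.25e-05, two-sided, the smallest the design gives.

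HvMADS15 and HvMADS18 also shifted against each other. At LT their ratio was 0.539 to 0.638 at W2.5 and 0.712 to 0.907 at W3.5. At HT it was 0.311 to 0.785 at W2.5, or at least 0.718 without WT HT W2.5 replicate 3, and 0.958 to 1.13 at W3.5. HvMADS15, the lower of the pair in every LT library, was thus about level with HvMADS18 in HT W3.5 libraries. The ratio was 1.45-fold higher at W3.5 (log2 difference 0.53, exact permutation test, two-sided, p = 1.25e-05).

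The temperature difference of the HvMADS15 to HvMADS18 ratio was smaller, 1.20-fold higher at HT (log2 difference 0.27, exact permutation test, two-sided, p = 0.019, adjusted p = 0.0284). Without WT HT W2.5 replicate 3, whose ratio of 0.311 was the lowest of all 24, it was 1.30-fold with adjusted p = 2.25e-05 by the same exact permutation test. It missed the threshold without WT HT W2.5 replicate 1 or 2, at adjusted p of 0.132 and 0.123, and without any 1 of the WT LT W2.5 libraries, at 0.0600 to 0.0774, all by exact permutation tests.

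**Figure D3:**
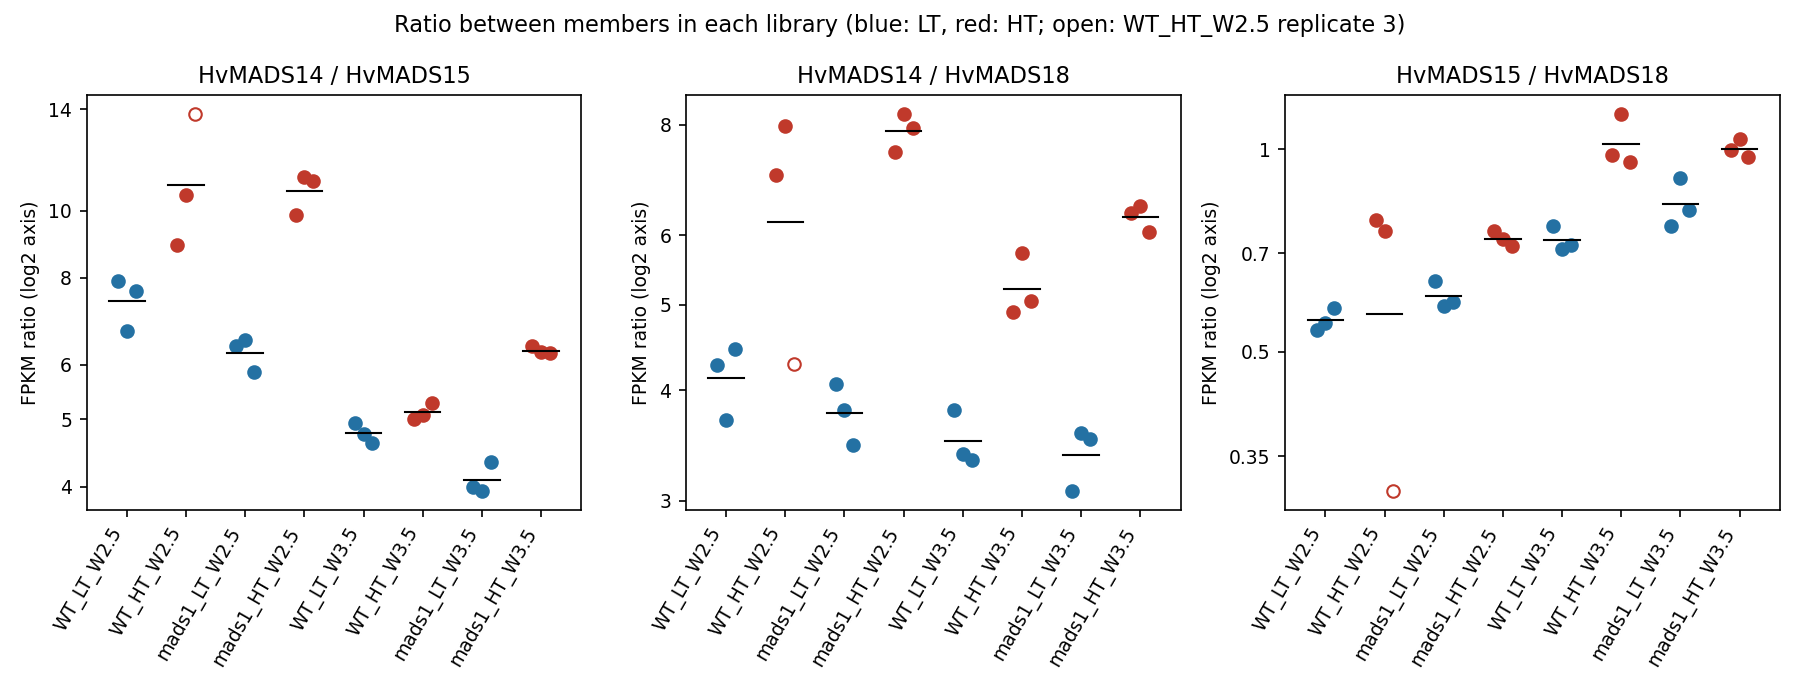
FPKM ratio between each pair of the 3 genes in each library, on log2 axes, with the geometric mean of each group as a line, LT in blue, HT in red and WT HT W2.5 replicate 3 as an open circle. In the middle panel the 12 LT libraries lie at 3.08 to 4.46, and all HT libraries other than the open circle lie at 4.90 or above.

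The shares in the summed FPKM show the same balance in another form. HvMADS18 gave 16.6% to 20.6% of the sum in LT libraries and 10.0% to 14.5% in HT libraries without WT HT W2.5 replicate 3, which had 17.9%. At W2.5 HvMADS14 gave 72.6% ± 1.85 in WT LT and 79.4% ± 2.70 in WT HT. In mads1 at W2.5 it gave 70.1% ± 1.42 at LT and 81.9% ± 0.860 at HT (SD, n = 3 each). At W3.5 its share was 66.9% ± 1.19 in WT LT, 72.1% ± 0.834 in WT HT, 64.9% ± 1.29 in mads1 LT and 75.9% ± 0.378 in mads1 HT (SD, n = 3 each). HvMADS15 gave 5.56% to 11.7% of the sum at W2.5 and 11.9% to 16.5% at W3.5, ranges that did not overlap.

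Between genotypes the 3 genes differed little when averaged over the 4 settings. The mean log2 difference of mads1 against WT was -0.03 for HvMADS14, 0.02 for HvMADS15 and -0.14 for HvMADS18, and exact permutation tests, two-sided, gave p of 0.748, 0.732 and 0.369. With WT HT W2.5 replicate 3 left out the mean log2 difference was 0.01 for HvMADS14, 0.02 for HvMADS15 and -0.03 for HvMADS18. The differences had opposite signs at the 2 stages: for each gene they were negative at W2.5 and positive at W3.5, at both temperatures, except that HvMADS15 at HT W2.5 turned to 0.02 when libraries were scaled by their totals. The ratios between the genes did not pass the test of genotype, with adjusted p of 0.1 to 0.47 by exact permutation tests. The HvMADS15 to HvMADS18 ratio passed without WT HT W2.5 replicate 1 (log2 difference 0.22, adjusted p = 0.0293) or WT HT W3.5 replicate 2 (0.18, adjusted p = 0.0202), both by exact permutation tests.

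By edgeR 1 of the 12 genotype tests was called, HvMADS18 at HT W2.5, with a log2 difference of -0.74 (SE 0.23, adjusted p = 0.0434). It rested on WT HT W2.5 replicate 3: without that library it was -0.15 (SE 0.09, adjusted p = 0.437 by edgeR). The call was also lost without any 1 of the mads1 HT W2.5 libraries and in 6 of 9 other alternatives, at adjusted p of 0.673 at most. At HT W2.5 this is 1 of 3 genes called lower, against 13.3% of all tested genes and 10.8% lower, and 0 of 3 against 5.67% without the library. For HvMADS14 the log2 fold change was -0.36 (SE 0.14, adjusted p = 0.365) at LT W2.5 and 0.40 (SE 0.14, adjusted p = 0.0983) at HT W3.5 by edgeR. Both groups of libraries were separate in these 2 settings, and both differences were called without WT HT W2.5 replicate 3, at -0.35 (adjusted p = 0.0157) and 0.39 (adjusted p = 0.00267 by edgeR). For HvMADS15 the log2 fold change at LT W3.5 was 0.33 (SE 0.11, adjusted p = 0.167 by edgeR), and it was called without that library, at 0.29 (adjusted p = 0.0298), or without mads1 LT W3.5 replicate 1.

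In the other 3 genotype settings 0 of 3 genes were called by edgeR with all 24 libraries, where 2.27%, 2.42% and 5.83% of all genes were called at LT W2.5, LT W3.5 and HT W3.5. Leaving out WT HT W2.5 replicate 3 made it 1 of 3 in each, against 5.59%, 14% and 24.4%. In the direction of the called gene the shares were 2.76% lower at LT W2.5, 8.12% higher at LT W3.5 and 13.8% higher at HT W3.5. Over the 12 tests 4 had an unadjusted p under 0.05 with all libraries. Of the 18394 tested genes, 1370 at LT W2.5 and 1956 at LT W3.5 also passed this unadjusted threshold. At HT 5801 passed it at W2.5 and 3045 at W3.5.

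The turn of sign between stages was tested as the genotype by stage interaction. Its estimate was positive for all 3 genes at both temperatures, meaning a larger stage difference in mads1. For HvMADS14 it was 0.47 (SE 0.19, adjusted p = 1) at LT and 0.69 (SE 0.19, adjusted p = 0.0735) at HT on the log2 scale by edgeR. For HvMADS15 it was 0.45 (SE 0.16, adjusted p = 1) and 0.34 (SE 0.16, adjusted p = 0.198), and for HvMADS18 0.39 (SE 0.33, adjusted p = 1) and 0.88 (SE 0.33, adjusted p = 0.134) by edgeR. The HT value of HvMADS18 was 0.27 (SE 0.12, adjusted p = 0.185 by edgeR) without WT HT W2.5 replicate 3.

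None of these 6 was called by edgeR with all 24 libraries. An unadjusted p under 0.05 was found in 5, all but HvMADS18 at LT. Of the 18394 tested genes, 761 at LT and 4405 at HT also passed this unadjusted threshold. By adjusted p, 0% of all tested genes were called for this interaction at LT and 1.88% at HT. DESeq2 called 1 of the 6, HvMADS14 at HT, against 0.2% of all genes at LT and 6.8% at HT. Voom with library weights called all 6, against 18.8% of all genes at LT and 23% at HT. Leaving out WT HT W2.5 replicate 3, edgeR called 1 of 6, HvMADS14 at HT, at 0.46 (SE 0.13, adjusted p = 0.0422), against 4.8% of all genes at HT, 2.82% in that direction, and 0.454% at LT.

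The temperature by stage interaction was called for 0 of 6 by edgeR, against 0.745% of all genes in WT and 1.5% in mads1. An unadjusted p under 0.05 was found in 1 of 6. Of the 18394 tested genes, 2974 in WT and 2106 in mads1 passed that unadjusted threshold. This interaction was called for 0 by DESeq2, against 2.63% and 4.31%, and for 2 by voom, against 9.27% and 37.7%. Without WT HT W2.5 replicate 3 it was called for HvMADS18 in mads1, at 0.33 (SE 0.11, adjusted p = 0.0428 by edgeR), against 14.9% of all genes there, 6.75% in that direction, and 2.23% in WT. The genotype by temperature interaction was called for 0 of 6 by edgeR, against 0.685% of all genes at W2.5 and 1.51% at W3.5. An unadjusted p under 0.05 was found in 0 of 6. Of the 18394 tested genes, 2743 at W2.5 and 2037 at W3.5 passed that unadjusted threshold. DESeq2 called this interaction for 0, against 2.05% and 4.54%. Voom called it for 2 at W3.5, and called 5.28% of all genes at W2.5 and 39.2% at W3.5. Without that library edgeR also called this interaction for 0 of 6, against 1.69% and 14.1%.

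Most, but not all, of 10 other MADS-box identifiers, which include the SEPALLATA genes that act in floral organs, had a larger stage difference than HvMADS15, the largest of the 3 genes: 7 of 10 in WT LT, 9 in WT HT, 8 in mads1 LT and 7 in mads1 HT. Of these 10, all tested, 5 in WT LT, 9 in WT HT, 8 in mads1 LT and 7 in mads1 HT were called higher at W3.5 by edgeR, and none lower. In the same order 0.429%, 5.59%, 1.15% and 4.68% of all tested genes were called higher. The counts were 8, 10, 8 and 9, with none lower, when WT HT W2.5 replicate 3 was left out. Over all genes 2.14%, 5.01%, 4.19% and 14.8% were then called higher. With all 24 libraries the median log2 fold changes of the 10 were 2.17, 4.18, 4.30 and 3.32. The medians over all genes were -0.03, 0.00, 0.01 and 0.02. HvMADS7, a SEPALLATA gene with no read in WT HT W2.5 or mads1 LT W2.5, was at least 232-fold higher in WT HT W3.5 and at least 356-fold higher in mads1 LT W3.5, taking 3 counts in the whole group as the floor. The medians were the same to 2 decimals with HvMADS7 at these bounds. HvMADS8, also a SEPALLATA gene, had 1 read in WT HT W2.5 and 672 in WT HT W3.5, a ratio of 512 per effective library size with a 95% counting interval (exact binomial, Clopper-Pearson) of 91.5 to 20240. At the other end, in genes named after their values were seen, HvMADS34, also of the SEPALLATA group, had log2 fold changes of 0.21 in WT LT, -0.30 in WT HT, 0.14 in mads1 LT and 0.44 in mads1 HT by edgeR, none called. Its WT HT value was 0.69 (adjusted p = 0.00131 by edgeR) and its mads1 HT value 0.43 (adjusted p = 0.00647 by edgeR) without WT HT W2.5 replicate 3. HvMADS32 had 0.50, 1.41, 1.13 and 1.21 in the same order, called in all but WT LT. HvMADS1 had 0.54 in WT LT and -1.22 in mads1 HT, neither called. In the other settings it had 2.84 in WT HT, called (adjusted p = 0.0185 by edgeR), and 1.39 in mads1 LT, not called.

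**Figure D4:**
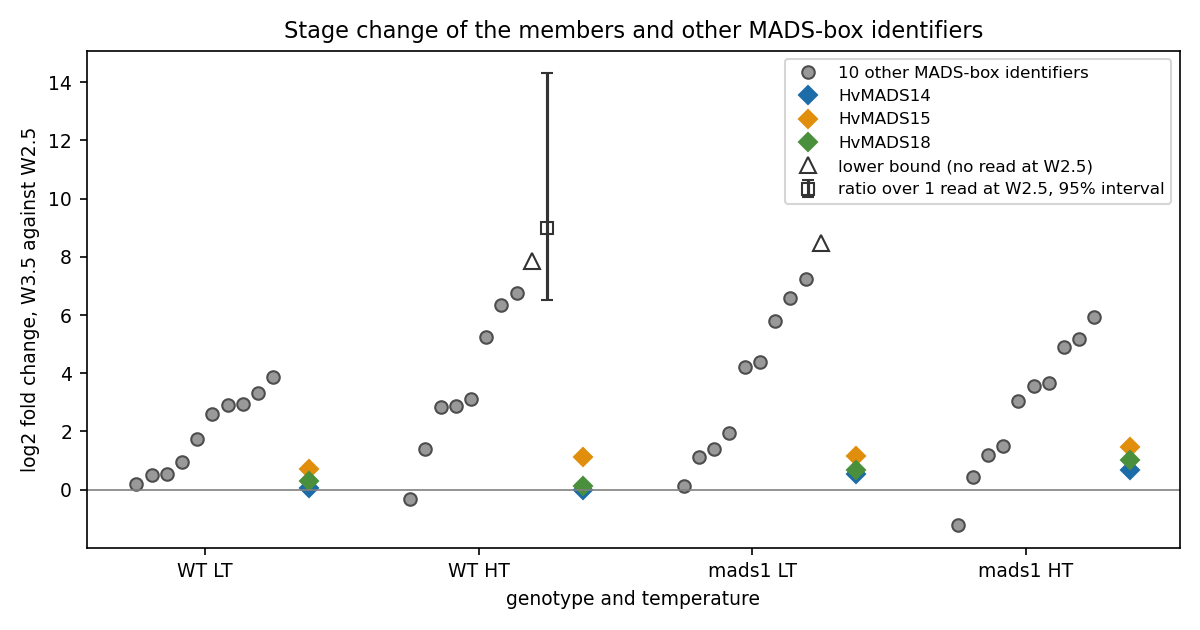
edgeR log2 fold change of W3.5 against W2.5 for HvMADS14, HvMADS15 and HvMADS18 (diamonds) and the 10 other MADS-box identifiers (circles, sorted within each combination), with lower bounds as triangles where no read was counted at W2.5 and, as a square with its 95% counting interval, the ratio of HvMADS8 over 1 read. The 3 genes lie between 0.00 and 1.45, and the medians of the other 10 lie between 2.17 and 4.30.

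At HT the other 10 were called lower in 8 cases in WT W2.5, 0 in WT W3.5, 2 in mads1 W2.5 and 5 in mads1 W3.5 by edgeR. None was called higher with all 24 libraries. In the same order 22.4%, 6.14%, 8.11% and 27.2% of all tested genes were called in either direction. Without WT HT W2.5 replicate 3 the lower calls were 9, 1, 3 and 9, against 7.71%, 12.2%, 14.5% and 25.4% of all genes. Then 1 was called higher, HvMADS58 in mads1 W2.5 at 1.29 (adjusted p = 0.0312 by edgeR), against 16.5% of all genes called higher. In WT W2.5 the median log2 fold change of the other 10 with all 24 libraries was -2.29. There HvMADS18 had -0.30, HvMADS15 -0.41 and HvMADS14 0.18. In mads1 W3.5, where HvMADS14 was called higher at HT, the median of the other 10 was -1.05. Between genotypes, with all 24 libraries, they were called lower in mads1 in 3 cases at LT W2.5 and in 1, HvMADS1, at HT W3.5. Of all tested genes 2.27% and 5.83% were called there in either direction. Without WT HT W2.5 replicate 3, 4 were lower at LT W2.5, 5 lower at HT W3.5, and 1 higher at HT W2.5. That 1 was HvMADS32 at 0.47 (adjusted p = 0.0244 by edgeR). In the same order 5.59%, 24.4% and 5.67% of all genes were called in either direction.

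Across the 8 group medians on the log2(CPM + 1) scale, HvMADS15 and HvMADS18 were the most alike of the 3 pairs, with a Pearson r of 0.85. HvMADS14 and HvMADS15 had 0.68, and HvMADS14 and HvMADS18 had 0.35. Over the 24 libraries the values were 0.75, 0.55 and 0.42 in that order, and over 23 without WT HT W2.5 replicate 3 they were 0.86, 0.67 and 0.37. These are descriptions over points that share libraries and scaling.

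Of 13256 other identifiers with a mean of at least 5 CPM, the nearest to HvMADS18 was HORVU4Hr1G004100, with r = 0.99 over the 8 group medians and 0.93 over the 24 libraries. The nearest to HvMADS15 was HORVU7Hr1G019680, with r = 0.97 over the medians and 0.79 over the libraries. The nearest to HvMADS14 was HORVU5Hr1G098980, with r = 0.98 over the medians but 0.32 over the 24 libraries and 0.77 over 23. With this many candidates and 8 points, high values are found for many identifiers. The fifth nearest identifier still had 0.95 for HvMADS14 and 0.96 for HvMADS15 and HvMADS18.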

How the data were processed

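Young spikes were profiled by RNA sequencing in 24 libraries, 3 in each of 8 groups. RNA came from pooled spikes and TruSeq libraries, per the labels' protocols, and the submitters' processing notes name HISAT2 and HTSeq. The sources used here do not give versions, genome build, annotation or strand setting, so reads of overlapping, antisense or near-identical genes are uncertain. The authors' deposited counts are whole reads per identifier, not normalized. Their deposited FPKM are those counts over a fixed gene length and the library total, so it is no second measurement.

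The counts were tested with edgeR 4.0.16 in R 4.3.3 (filterByExpr, TMM, 8 group means over 24 libraries, quasi-likelihood tests of 18 contrasts, Benjamini-Hochberg adjustment over 18394 genes, threshold 0.05). Standard errors come from dividing the log2 fold change by the root of F. Both levels and within-library ratios were tested over libraries by exact permutation within 4 settings. Only the edgeR test of HT against LT in mads1 W3.5 was checked on simulated data before use. That simulation took its spread from the libraries other than WT HT W2.5 replicate 3, and the permutation tests were not part of it. Alternatives were DESeq2 1.42.0, RLE factors, no filter, robust empirical Bayes, limma 3.58.1 (voom with library weights; log2 FPKM with pseudocounts of 1 and 0.1), only the libraries compared, a replicate block and leaving out each library. Fits without WT HT W2.5 replicate 3 under DESeq2 or with the block were added after the data were seen.

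The 3 genes, the 10 other MADS-box identifiers (HvMADS1 among them) and the tests were chosen with earlier results of these data known. The rule for named genes took the 3 genes always, the called identifiers of the other list by size, and the nearest identifier by correlation. A list of flowering regulators by gene description had no matches and was not used. Sequences and coordinates are not given, since no table used here pairs them with these identifiers. Apart from the counting interval of HvMADS8, intervals were not computed. That interval and the floor of 3 counts cover counting error only.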

Additional observations from a re-analysis of the deposited data

Results flagged for a closer look

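Without WT HT W2.5 replicate 3, the stage difference of HvMADS14 at HT differed between genotypes by 0.46 on the log2 scale, larger in mads1 (SE 0.13, adjusted p = 0.0422 by edgeR). In that fit 27.9% of all tested genes had an estimate at least as large, and 4.8% were called. With all 24 libraries the same interaction was 0.69 (SE 0.19, adjusted p = 0.0735 by edgeR).

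Without the same library, the stage difference of HvMADS18 in mads1 differed between temperatures by 0.33 on the log2 scale, larger at HT (SE 0.11, adjusted p = 0.0428 by edgeR). This size was ordinary in that fit, where 44.9% of all tested genes had an estimate at least as large and 14.9% were called. With all 24 libraries the HvMADS18 difference was 0.32 (SE 0.33, adjusted p = 0.872 by edgeR). The fits differ in whether that library was included. It belongs to no group of this HvMADS18 comparison. It enters there through the spread that all groups share, the scaling of libraries and the set of genes tested. In the HvMADS14 comparison it also belongs to a group compared, where it stood at 419 CPM. How much each of these contributed to the HvMADS14 change was not tested.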

How the results depend on the processing

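Of the 11 calls of pairwise comparisons in the 3 genes with all 24 libraries, none changed sign under any alternative run. Every change of sign listed here belongs to a difference that was not called with all 24 libraries, and causes were not tested unless named. Calls of the 12 stage tests were 10 with voom and 10 without WT HT W2.5 replicate 3 under DESeq2 or with a replicate block, and 6 to 10 when leaving out each library. Calls of the 12 temperature tests were 9 with voom and 8 under both added fits, and 3 to 8 when leaving out each library. Over all genes voom called 11.7% to 51% by stage, 28.9% to 72.1% by temperature and 9.92% to 47.8% by genotype. DESeq2 with all 24 libraries called 3.2% to 19.1% of all genes by genotype. The voom genotype shares at W2.5 were 9.92% (LT) and 12.2% (HT), and those at W3.5 were 47.8% (LT) and 47.3% (HT). Voom called HvMADS14 in all genotype settings but HT W2.5, HvMADS15 in both at W3.5, and HvMADS18 in LT W3.5 alone. Shares over all genes were not computed for the added fits. They are not given for no filter, limma or the fits without any other single library. Counts of calls under all these fits therefore have no background to be read against. Calls of the 12 genotype tests were 0 with no filter, with the replicate block and with limma at either pseudocount, 3 with DESeq2, 6 with voom, 3 under both added fits, and 0 to 3 when leaving out each library. Calls of the genotype by temperature interaction were 2 with voom and 0 to 0 without single libraries; of temperature by stage, 2 with voom, 1 under both added fits and 0 to 1; of genotype by stage, 1 with DESeq2, 6 with voom, 2 and 1 under the added fits with DESeq2 and with the block, and 0 to 2.

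Calls of the 10 other MADS-box identifiers over the 12 pairwise comparisons were 48, with 84 under voom and 42 to 68 without single libraries. HvMADS1 was called between genotypes in 1 of 4 settings, in 0 with DESeq2 and 0 without WT HT W2.5 replicate 3 with DESeq2 (adjusted p not given), in 3 with voom, in 2 with only the libraries compared and in 1 to 2 without single libraries. Of the 9 permutation tests of levels 6 to 6 passed without single libraries, and of ratios 5 to 7.

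Reversed values follow on the log2 scale. HvMADS14 by stage in WT HT (-0.0031) was 0.0289 with no filter, 0.182 with voom, 0.0038 with the replicate block, 0.322 and 0.323 with limma at pseudocounts of 1 and 0.1, and -0.115 to 0.214 without single libraries. HvMADS18 there was -0.0983 to 0.732 without single libraries. HvMADS14 by temperature in WT W2.5 was -0.118 with limma at both pseudocounts and -0.0124 to 0.289 without single libraries. HvMADS15 by temperature in WT W3.5 (0.0031) was -0.0077 with RLE factors, -0.0002 with no filter, -0.0084 with DESeq2, -0.0131 with voom, -0.035 and -0.0354 with limma, and -0.0479 to 0.0577 without single libraries. HvMADS15 between genotypes at HT W2.5 was 0.02 and 0.0222 with limma. Genotype by temperature at W2.5 was 0.161 and 0.165 for HvMADS15 with limma, and without single libraries -0.0381 to 0.28 for HvMADS14 and -0.734 to 0.082 for HvMADS18. At W3.5 it was for HvMADS18 0.0065 with RLE factors and 0.0065 with DESeq2, 0.0152 and 0.0155 with limma, and -0.0789 to 0.0408 without single libraries. Temperature by stage in WT was for HvMADS14 0.0897 with voom, 0.183 and 0.184 with limma and -0.185 to 0.116 without single libraries, and for HvMADS18 0.299 with voom, 0.191 and 0.195 with limma and -0.401 to 0.398. The mean genotype difference of HvMADS14 was -0.0600 to 0.014 without single libraries.

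FPKM are scaled by library totals, which moved the median of all genes by -0.37 to 0.34 in the 6 comparisons that hold WT HT W2.5, so limma values there are relative to that shift. RLE factors moved it by at most 0.0313. Replicate numbers do not pair the libraries: deviations of same-numbered libraries correlated at a median of 0.02 (-0.64 to 0.60, 84 pairs). With the block the calls over all genes between genotypes at HT W2.5 were 1280 against 2446, and HvMADS18 lost its call there. The temperature difference of the HvMADS15 to HvMADS18 ratio also lost its call with the block (exact permutation test, adjusted p = 0.0615). DESeq2 called over 1.5 times as many genes as edgeR in several comparisons, for instance 302 against 117 by stage in WT LT and 1848 against 1130 by temperature in WT W3.5. The depth gave 241 reads or more per value. Counting error was not small beside the spread between libraries in every group. For HvMADS15 in mads1 HT W2.5, 371 to 408 reads gave a mean of 23.4 CPM with an SD of 0.182. The spread between libraries, with 3 per group, limits the precision.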
